A study of Mus musculus with 12 samples.

Results

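The transcripts described here encode 8 factors that build the meiotic spindle of the mouse oocyte: the small GTPase Ran and its exchange factor Rcc1, the microtubule-associated proteins Tpx2 and Numa1, the Tacc3, Ckap5 (ch-TOG) and Cltc (clathrin heavy chain) module, and the pericentriolar protein Pcnt (pericentrin). They were chosen by symbol, as the rows of the deposited count matrix that carry these 8 names, out of 56691 genes in that matrix. All 8 were found once each, and all 8 passed the filter on low counts in every comparison.

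Oocytes were compared between wild-type (WT) and Alkbh5 knockout (KO) mice at 3 stages of meiotic maturation, with 2 libraries per group and 12 libraries in all. The knockout is a whole-body deletion made with CRISPR-Cas9 that removes exon 1 of Alkbh5, the gene of an RNA demethylase that erases N6-methyladenosine (m6A), so follicle cells and the rest of the animal lack it too. Donors were 3-week-old PMSG-primed females, and denuded, fully grown germinal vesicle (GV) oocytes were taken at 0 h or after 4 h or 16 h in culture without the inhibitor milrinone. Those times stand for GV, germinal vesicle breakdown (GVBD) and metaphase II (MII). WT and KO oocytes were primed, cultured and stripped of their zona in the same way. Each library is a small pool of oocytes collected by time in culture, so a library labelled GVBD or MII may hold oocytes that had not reached that stage. The study reported that most KO oocytes in culture failed to undergo GVBD, and that far fewer KO than WT oocytes extruded a polar body. Genotype differences at the GVBD and MII times, and changes with time in KO, thus cannot be told apart from differences in the stage reached. The number of oocytes per tube is given differently in different places of the study, and nothing ties the pools to single animals, so p-values measure only the spread between these pools. The edgeR test shares that spread between genes, to an extent set anew in each comparison. A gene's own spread may thus enter little, and a call in 1 comparison and a miss in another are not on the same footing.

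Library totals ran from 28557742 to 40247810 counts, of which 221927 to 838409 fell on the ERCC spike-in, synthetic RNAs added in equal amount to each tube. Endogenous counts per ERCC count lay between 47.0 and 128. The 4 MII libraries had 47.0 to 87.9, the 4 GVBD libraries 75.3 to 121 and the 4 GV libraries 98.9 to 128. In pools of this kind fewer oocytes in a tube and less RNA per oocyte cannot be told apart, and the reverse transcription started from polyadenylated RNA, so the amount of an mRNA and the length of its poly(A) tail cannot be told apart either. Alkbh5 itself had 5355 to 10181 counts in the 6 WT libraries and 54 to 143 in the 6 KO libraries, and edgeR put KO below WT by −5.41 (GV), −6.43 (GVBD) and −5.89 (MII) on the log2 scale, all called. All 10 oocyte markers were detected in every group. Markers of cumulus or granulosa cells summed to 24.8 to 74.7 CPM, counts scaled to a common library total. Those of stroma or theca summed to 56.1 to 153 CPM, of cardiac sarcomere to 78.7 to 965 and of blood to 6.96 to 5427. Single genes carried much of some sums. In WT GV replicate 1 Cyp19a1 had 788 counts beside 103 for Fshr and 0 for Amh, and Pecam1 had 2539 beside 28 for Col1a1. Among the cardiac markers there, Tnni3 had 34485 counts beside 4 (Tnnt2), 0 (Actc1) and 2 (Myh6). In WT MII replicate 1, by contrast, Myh6 (2785) exceeded Tnni3 (2056). The blood sums within a pair could lie far apart, at 35.0 and 5427 CPM in WT GV and at 7.20 and 901 in KO MII. KO MII replicate 2 had the fewest genes detected (19837 against 21938 to 24436 in the others). The correlation between partner libraries was lowest in KO MII (r = 0.890, against 0.911 to 0.955 in the other groups), a value that both its libraries share. GV to MII changes in KO are therefore given with and without replicate 2. Of all genes tested for that change, edgeR put 3.28% lower with both KO MII libraries (median log2 fold change −1.17), 16.5% without KO MII replicate 2 (−0.80) and 53.9% without KO MII replicate 1 (−2.09). Values without replicate 1 rest on replicate 2, the library with the fewest genes detected.

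Mouse oocytes have no centrioles. Their spindle forms around the chromosomes, where Rcc1 bound to chromatin loads Ran with GTP, and Ran-GTP frees spindle factors such as Tpx2 and Numa1 from the importins that hold them. Microtubules also grow from many acentriolar microtubule-organizing centres (MTOCs) that hold Pcnt and cluster into poles, and Tacc3, Ckap5 and clathrin organize a liquid-like domain of the spindle and cross-link its fibres. Because the growing oocyte stops transcription before it resumes meiosis, proteins made during maturation come from stored maternal mRNA, which is polyadenylated and translated, or deadenylated and degraded, partly through elements near the 3′ end. The study stained the Pcnt and Tpx2 proteins to follow spindle poles in WT and KO oocytes, and reported scattered Pcnt foci and a weaker Tpx2 signal in KO. Protein staining and mRNA counts are unlike measures. Whether the mRNAs of these factors differed between the genotypes, and how they changed from GV to MII, is what the counts address.

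The ends of the 7 transcripts in which a poly(A) signal was found are shown because the 8 mRNAs had unlike courses from GV to MII, and the 3′ end carries elements that act on stored mRNA. A script read them from 1 protein-coding transcript per gene in GENCODE M21 (GRCm38), 5′ to 3′ on the transcript strand. Capitals mark the poly(A) signal (AATAAA or ATTAAA) and, where it lies in the same stretch, the cytoplasmic polyadenylation element (CPE, searched as TTTTAT or TTTTAAT, sense strand only).
Tacc3 (chr5:33678946-33678975, + strand): gggtagccctgtAATAAAgacagctctgtc
Cltc (chr11:86694356-86694385, − strand): acactgacttgaAATAAAggtatatttttt
Ckap5 (chr2:91620629-91620658, + strand): taagagacTTTTATaAATAAAgtttgcatt
Pcnt (chr10:76351276-76351305, − strand): ttctTTTTATtggcaaaacaAATAAAacta
Tpx2 (chr2:152895294-152895321, + strand): aagccagccccaATTAAAtgttgtttat
Numa1 (chr7:102014923-102014952, + strand): ttattacttgtaAATAAAgtctatttttct
Rcc1 (chr4:132331927-132331956, − strand): ttgtaacactttAATAAActtagagttttg
In Ckap5 and Pcnt a CPE stood beside the poly(A) signal. Across the last 150 bases, Ckap5 held 2 CPE matches, and Pcnt, Cltc and Rcc1 held 1 each, which in Cltc and Rcc1 lay outside the printed stretch. Tacc3, Tpx2, Numa1 and Ran held none, and Ran held no poly(A) signal in that window. Of 18251 protein-coding genes with a 3′ UTR at least as long as the window, 23.5% held a CPE match there and 80.3% a poly(A) signal. A match is a run of letters and not a tested element.

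Tpx2 was the most abundant of the 8 for its length, and Numa1 and Rcc1 the least. Levels between genes are given as CPM per kilobase of annotated exon, as the mean of 2 libraries. In WT GV oocytes Tpx2 stood at 116, Tacc3 at 69.0, Ran at 20.6, Ckap5 at 18.9, Cltc at 6.69, Pcnt at 3.16, Numa1 at 1.5 and Rcc1 at 1.13, and no neighbours in that order overlapped between libraries. In WT MII oocytes the order was Tpx2 (132), Ckap5 (27.6), Tacc3 (21.8), Ran (21.7), Cltc (4.16), Pcnt (3.93), Numa1 (2.11) and Rcc1 (2.03). There Tacc3 and Ran, Cltc and Pcnt, and Numa1 and Rcc1 overlapped between libraries. At GVBD Tpx2 led in WT (141, against 88.5 for Tacc3, with overlapping libraries) and Tacc3 led in KO (109, against 71.6 for Tpx2, without overlap). In KO MII oocytes Tpx2 (109) was again first and Ran (32.5) second, followed by Ckap5 (21.3) and Tacc3 (20.9), whose libraries overlapped. With the length of the 1 chosen transcript in place of all exons, Ckap5 (26.8) stood above Ran (22.5) in WT GV and Rcc1 (1.87) above Numa1 (1.65).

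**Figure D1:**
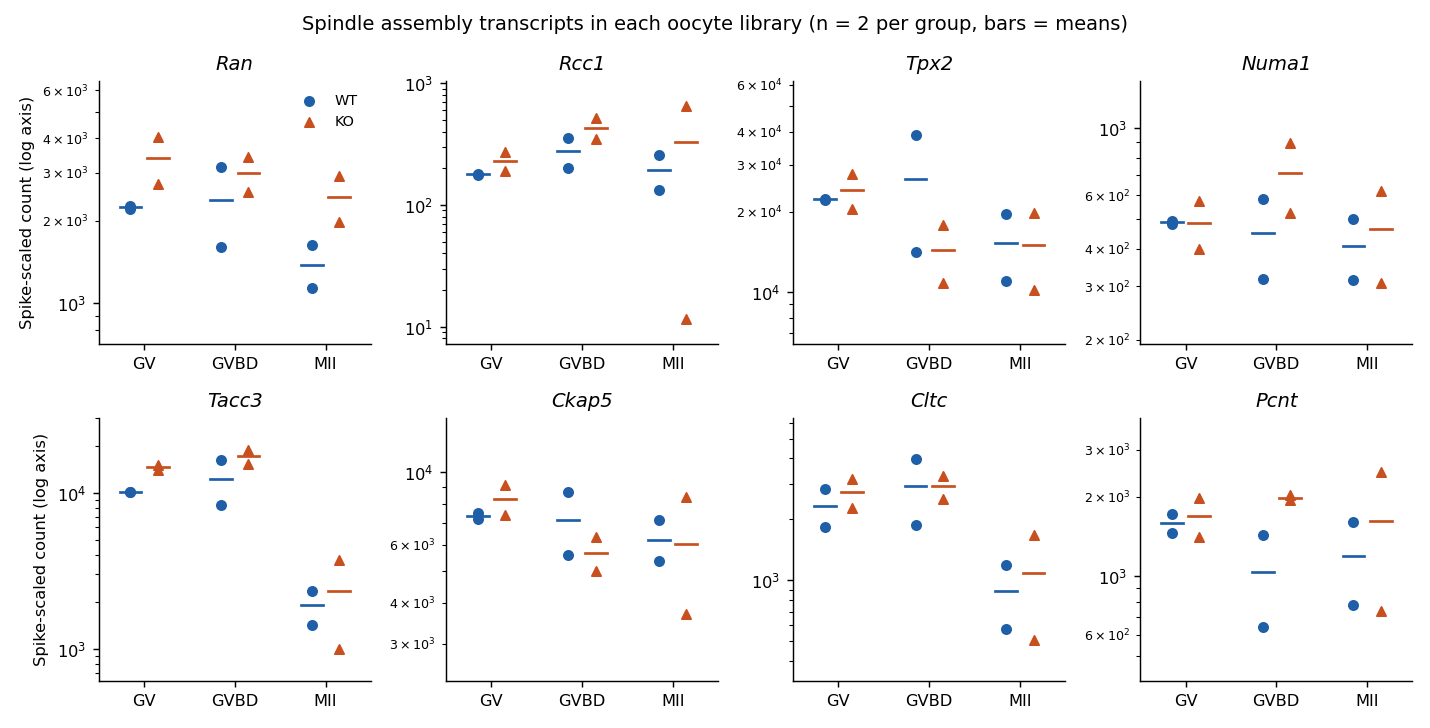
Each panel plots 1 of the 8 transcripts, with the spike-scaled count on a log axis against stage, for WT (circles) and KO (triangles). Points are single libraries (n = 2 per group) and bars are group means. Tacc3 lies between 8328 and 18903 in the 8 GV and GVBD libraries and between 993 and 3674 in the 4 MII libraries, and the 2 KO MII libraries of Rcc1 lie at 652 and 11.5.

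Tacc3, a coiled-coil adaptor that recruits Ckap5 and clathrin to the spindle, showed the largest change with stage among the 8. In WT the GV pair of libraries had 8519 and 7142 deposited counts, the GVBD pair 12029 and 9404, and the MII pair 2952 and 2958. In KO the GV pair had 7648 and 11835, the GVBD pair 11496 and 13909, and the MII pair 3671 and 1386. Every MII library was below every GV and GVBD library in both genotypes, as the plot of spike-scaled counts by stage shows. Spike-scaled counts are counts divided by a factor proportional to the library's ERCC total, with a mean of 1 over the 12 libraries. On that scale the WT GV pair of Tacc3 lay at 10108 and 10072 and the WT MII pair at 2355 and 1426, while the KO GV pair lay at 13924 and 15099 and the KO MII pair at 3674 and 993. In WT, edgeR put MII below GV by a log2 fold change of −2.42 ± 0.49 (SE; adjusted p = 1.08e-05) and below GVBD by −2.69 ± 0.66 (edgeR adjusted p = 0.000552). In KO the difference from GV was −2.64 ± 0.70 and missed the threshold (edgeR adjusted p = 0.0624). DESeq2 put it past the threshold (adjusted p = 0.00208), and so did edgeR without KO MII replicate 2 (−1.98, adjusted p = 0.000409) or without KO MII replicate 1 (−3.87, adjusted p = 2.57e-09). The call was missed with TMM scaling (−1.75, edgeR adjusted p = 0.0546), with median-of-ratios scaling (−1.73, edgeR adjusted p = 0.0546) and without either KO GV library (−2.69 and −2.58, edgeR adjusted p = 0.602 and 0.467). From GVBD to MII in KO the log2 fold change was −2.87 ± 0.75 (edgeR adjusted p = 0.0176), and without KO MII replicate 2 it was −2.22 and missed the threshold (edgeR adjusted p = 0.0704). The KO minus WT difference in the GV to MII change of Tacc3 was −0.22 ± 0.80 on the log2 scale (edgeR adjusted p = 1.0), so the genotypes were not shown to differ in it. Leaving out either WT GV library raised the edgeR adjusted p of the WT GV to MII change to 0.0846 or 0.0812, with the fold change at −2.41 or −2.42.

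Cltc, the heavy chain of clathrin, which bridges spindle fibres together with Tacc3 and Ckap5, also fell from GV to MII in WT. The WT pairs had 1547 and 1998 counts (GV), 2958 and 2125 (GVBD), and 1497 and 1195 (MII), and the KO pairs had 1744 and 1781 (GV), 1999 and 2296 (GVBD), and 1669 and 711 (MII). Spike-scaled, the 2 WT MII libraries (1194 and 576) lay below the 2 WT GV libraries (1836 and 2818), and the KO MII libraries (1670 and 509) below KO GV (3175 and 2272). In WT the log2 fold change was −1.40 ± 0.50 from GV (edgeR adjusted p = 0.0198) and −1.72 ± 0.67 from GVBD (edgeR adjusted p = 0.0389). In KO it was −1.32 ± 0.71 from GV (edgeR adjusted p = 0.275), −0.70 without KO MII replicate 2 (adjusted p = 0.173) and −2.42 without replicate 1 (adjusted p = 1.27e-05). The fall in WT was close to that of all genes, whose median moved by −1.06 from GV to MII, and TMM scaling, which sets most genes to no change, left Cltc at −0.51 ± 0.24 (edgeR adjusted p = 0.177). The call was also lost without either WT GV library (adjusted p = 0.293 and 0.628) and without WT MII replicate 2 (0.156). The call from GVBD to MII was lost without each of the 4 libraries in turn (adjusted p from 0.0555 to 0.658), with TMM scaling (−0.77, adjusted p = 0.0742) and with all 12 libraries in 1 model (adjusted p = 0.0650).

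Ckap5, a microtubule polymerase, did not follow Tacc3. Its WT pairs had 6078 and 5322 counts (GV), 6467 and 6327 (GVBD), and 8921 and 11079 (MII). Its KO pairs had 5015 and 5777 (GV), 3044 and 5738 (GVBD), and 8352 and 5168 (MII). The WT counts were highest at MII, and the counts of the KO GV and MII pairs overlapped. The GV to MII log2 fold change was −0.24 ± 0.47 in WT and −0.45 ± 0.59 in KO with ERCC scaling (edgeR adjusted p = 0.770 and 0.671). With TMM scaling it was 0.71 ± 0.19 in WT (edgeR adjusted p = 0.0383), which did not reach the 2-fold minimum, and 0.58 ± 0.23 in KO (edgeR adjusted p = 0.157), so its direction depended on the scaling. Without KO MII replicate 2 edgeR put Ckap5 at 0.02 in KO (adjusted p = 0.973), and without replicate 1 at −1.16 (adjusted p = 0.00203), where the median of all genes was −2.09.

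Among the 8 transcripts, edgeR at an adjusted p under 0.05 and at least a 2-fold change called 2 lower from GV to MII in WT, Tacc3 and Cltc, and none higher. Over all 18816 genes tested in that comparison 30.5% were called lower and 0.393% higher. From GVBD to MII in WT the same 2 were lower, against 27.1% of genes. In KO the count was 0 from GV to MII, with 1 of the 8 at an unadjusted p under 0.05 and 1 by DESeq2, against 3.28% of genes lower, and it was 1 (Tacc3) from GVBD to MII, against 7.12%. The median log2 fold change of the 8 from GV to MII was −0.48 in WT and −0.46 in KO, where all tested genes had medians of −1.06 and −1.17. With TMM scaling the median of the 8 was 0.40 in WT and 0.64 in KO, the medians of all genes were −0.14 and −0.14, and Tacc3 alone kept its call in WT. From GVBD to MII in WT, TMM scaling called Tacc3 lower (−1.71 ± 0.21, edgeR adjusted p = 0.00505) and Pcnt higher (1.16 ± 0.28, edgeR adjusted p = 0.0320). Over all genes TMM scaling split the WT GV to MII calls into 1593 higher and 3053 lower, against 74 and 5747 with ERCC scaling.

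**Figure D2:**
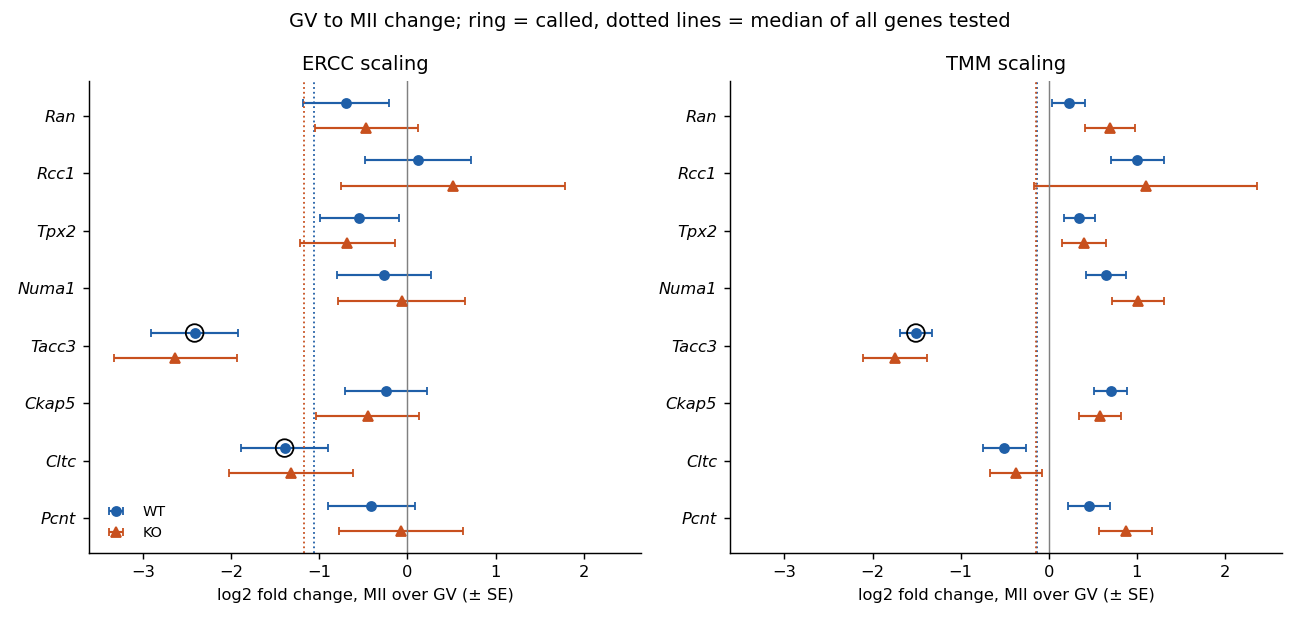
The log2 fold change of MII over GV (horizontal axis, ± SE) is plotted for each of the 8 transcripts in WT (circles) and KO (triangles), with ERCC scaling on the left and TMM scaling on the right. Rings mark calls and dotted lines the median of all genes tested. Tacc3 lies farthest left on both scales, at −2.42 and −1.51 in WT.

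Pcnt, the scaffold that anchors the γ-tubulin complex at oocyte MTOCs, was not called in any comparison by edgeR with ERCC scaling and all libraries of the groups compared. WT pairs had 1449 and 1029 counts (GV), 1072 and 727 (GVBD), and 2017 and 1620 (MII), and KO pairs had 1087 and 1106 (GV), 1228 and 1758 (GVBD), and 2479 and 1036 (MII). The spike-scaled KO GVBD libraries (2019 and 1937) lay above the WT GVBD libraries (1438 and 644), at a log2 fold change of 0.93 ± 0.54 (edgeR adjusted p = 0.447). From GV to MII Pcnt stood at −0.41 ± 0.49 in WT and −0.07 ± 0.71 in KO (edgeR adjusted p = 0.601 and 0.963). Without WT MII replicate 1 the WT value was −1.02 (edgeR adjusted p = 0.0470), where the median of all genes was −1.58. The KO value was 0.55 without KO MII replicate 2 (edgeR adjusted p = 0.275) and −1.19 without replicate 1 (edgeR adjusted p = 0.00992), so its sign rested on 1 library.

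Tpx2, which nucleates microtubules and activates Aurora A once Ran-GTP frees it, had the highest counts of the 8 in every library except KO GVBD replicate 1, where Tacc3 was higher. Its WT pairs had 18670 and 15874 (GV), 28920 and 15948 (GVBD), and 24498 and 22685 (MII), and its KO pairs had 15273 and 15986 (GV), 6537 and 16242 (GVBD), and 19827 and 14183 (MII). KO GVBD replicate 1 held the lowest Tpx2 count and the lowest Ckap5 count of the 12 libraries. KO GVBD was below WT GVBD in Tpx2 by −0.89 ± 0.55 on the log2 scale (edgeR adjusted p = 0.484), and the spike-scaled libraries overlapped (10749 and 17893 in KO, 38782 and 14122 in WT). From GV to GVBD in KO Tpx2 stood at −0.75 ± 0.33 (edgeR adjusted p = 0.649). Without KO GVBD replicate 2 that value was −1.16 and passed (edgeR adjusted p = 0.00465), while it rested on the single library that remained. From GV to MII Tpx2 stood at −0.55 ± 0.45 in WT and −0.68 ± 0.54 in KO (edgeR adjusted p = 0.397 and 0.461), and at 0.35 and 0.40 with TMM scaling. Without WT MII replicate 1 the WT value was −1.03 (edgeR adjusted p = 0.0262), beside an all-gene median of −1.58. The KO value was −0.28 without KO MII replicate 2 (edgeR adjusted p = 0.526) and −1.25 without replicate 1 (edgeR adjusted p = 0.000661), beside −2.09 for all genes.

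Numa1, which binds dynein and focuses spindle poles, had low counts throughout, from 312 to 652. The WT pairs had 415 and 343 (GV), 436 and 357 (GVBD), and 627 and 652 (MII), and the KO pairs had 316 and 312 (GV), 545 and 476 (GVBD), and 620 and 431 (MII). The GV to MII log2 fold change was −0.26 ± 0.53 in WT and −0.07 ± 0.72 in KO (edgeR adjusted p = 0.781 and 0.967). The KO value was 0.35 without KO MII replicate 2 and −0.65 without replicate 1 (edgeR adjusted p = 0.635 and 0.225). With TMM scaling it was 0.65 in WT and 1.01 in KO (edgeR adjusted p = 0.0767 and 0.0876). The last 80 bases of the gene overlap Il18bp on the other strand, which had at most 26 counts.

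Ran, the GTPase at the head of the pathway, was the steadiest of the 8 in deposited counts, from 1572 to 2922, but not in spike-scaled counts. On that scale its highest library was 3.58 times its lowest, against 2.47 times for Ckap5 and 2.90 times for Numa1. The WT pairs had 1914 and 1572 (GV), 2340 and 1817 (GVBD), and 2042 and 2348 (MII), and the KO pairs had 2227 and 2137 (GV), 2073 and 2317 (GVBD), and 2922 and 2763 (MII). Spike-scaled, KO lay above WT without overlap at GV (4055 and 2726 against 2271 and 2217) and at MII (2924 and 1979 against 1629 and 1132), and the libraries overlapped at GVBD. The log2 fold change of KO over WT was 0.59 ± 0.24 for GV, 0.33 ± 0.53 for GVBD and 0.83 ± 0.81 for MII, and 0.58 ± 0.24 over all stages (edgeR adjusted p = 0.267, 0.838, 1.0 and 0.213). The MII value was 1.08 without KO MII replicate 2 and 0.52 without replicate 1 (edgeR adjusted p = 0.726 and 0.963). From GV to MII in KO, Ran stood at −0.21 without replicate 2 and −0.78 without replicate 1 (edgeR adjusted p = 0.708 and 0.0486, the second short of 2-fold). The coding sequence of Rasl2-9, a close copy of Ran, shared 94.6% of its 648 bases with Ran and a longest identical run of 77 bases. Rasl2-9 had 175 to 832 counts, so reads may have been split between the 2 genes.

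Rcc1, the chromatin-bound exchange factor that makes Ran-GTP, had the lowest counts and the widest spread. The WT pairs had 149 and 128 (GV), 263 and 225 (GVBD), and 321 and 276 (MII), and the KO pairs had 104 and 214 (GV), 315 and 314 (GVBD), and 651 and 16 (MII). The 2 KO MII libraries held the highest and the lowest count of the 12. With both, the KO GV to MII log2 fold change was 0.52 ± 1.27 (edgeR adjusted p = 0.834). Without KO MII replicate 2 it was 1.49 (edgeR adjusted p = 0.0406), and without KO MII replicate 1 it was −4.32 (edgeR adjusted p = 5.27e-05), so 1 library set its direction. Snhg3, a non-coding host gene on the same strand, overlaps 5592 bases of Rcc1 and had 38 to 179 counts, and reads could be assigned to either gene.

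None of the 8 transcripts was called between KO and WT at any stage. At GV the count was 0 of 8, with 2 at an unadjusted p under 0.05, against 0.0977% of 19452 genes called. At GVBD it was 0, with none at an unadjusted p under 0.05, against 2.54% of genes, and at MII 0, with none at an unadjusted p under 0.05, against 0.803%. Over all stages it was 0, with 1 (Ran) at an unadjusted p under 0.05, against 1.26%, and for the KO minus WT difference in the GV to MII change it was 0, with none at an unadjusted p under 0.05, against 0.0%. DESeq2 also called 0 of the 8 in each of these comparisons. In the DESeq2 fit Tacc3 at GV had an adjusted p of 0.0107 at a log2 fold change of 0.52, below the 2-fold minimum, and edgeR gave 0.52 ± 0.16 (adjusted p = 0.193). Its spike-scaled KO GV libraries (13924 and 15099) lay above both WT GV libraries, and all genes had a median KO over WT log2 fold change of 0.36 at GV. With TMM scaling the Tacc3 value was 0.19 ± 0.17.

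The precision of these comparisons was low. Standard errors of the KO over WT log2 fold change of the 8 ran from 0.16 to 0.38 (GV), from 0.51 to 0.58 (GVBD) and from 0.68 to 0.93 (MII). At MII that of Rcc1, with 651 and 16 counts in the KO libraries, was 0.93, beside 0.88 for Numa1. The median over the 8 was 0.20 (GV), 0.41 (GVBD) and 0.30 (MII), beside all-gene medians of 0.36, 0.23 and 0.30. The MII values depended on the KO MII library kept. Without replicate 1 all of the 8 except Ran were below 0, and without replicate 2 all were above 0. Tacc3 stood at −0.93 and 0.96 in these fits, Rcc1 at −4.07 and 1.75, and the all-gene median at −0.45 and 0.70. At GVBD Tpx2, Ckap5 and Cltc had values below 0 (−0.89, −0.33 and −0.0078) and Pcnt, Numa1, Rcc1, Tacc3 and Ran above 0 (0.93, 0.66, 0.65, 0.48 and 0.33). From GV to GVBD none of the 8 was called in WT, with none at an unadjusted p under 0.05 and 0 by DESeq2, against 0.0511% of genes, or in KO, with 1 at an unadjusted p under 0.05 and 0 by DESeq2, against 0.22%.

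**Figure D3:**
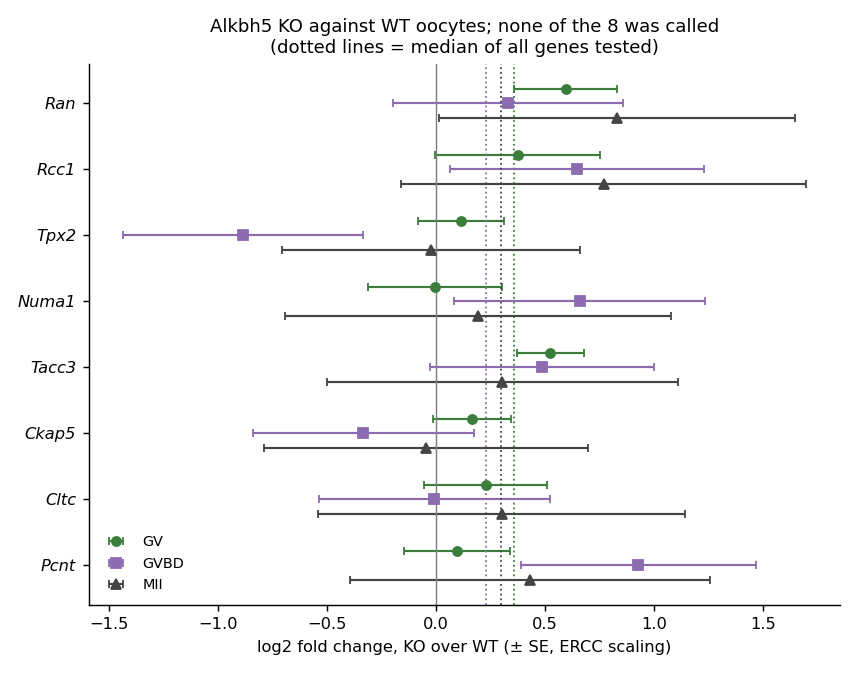
The log2 fold change of KO over WT (horizontal axis, ± SE, ERCC scaling) is plotted for each of the 8 transcripts at GV (circles), GVBD (squares) and MII (triangles), with n = 2 libraries per group. Dotted lines are the medians of all genes tested (0.36, 0.23 and 0.30). The widest separation from 0 is Pcnt at 0.93 and Tpx2 at −0.89, both at GVBD and neither called.

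The genes with the course most like each transcript across the 12 libraries were found by likeness, the root-mean-square difference of TMM-scaled log2 CPM with each gene centred on its own mean, among 5307 genes whose mean count reached 500. It is a description. Closest to Tacc3 were Mrpl16 (0.12) and Psmd14 (0.15), and closest to Ckap5 were Kif5c (0.11) and Pld1 (0.12). Tpx2 was close to Brip1 (0.20), Pcnt to Plekhg1 (0.19) and Sorl1 (0.20), and Numa1 to Clptm1l (0.14) and Kdm1b (0.18). Ran was closest to Inip (0.12) and Pcgf6 (0.12), and Cltc to Sf3b3 (0.19) and AU015836 (0.20). Rcc1, with its split KO MII libraries, had no near match (Wdtc1 at 0.66 and Snx17 at 0.69). Within the set the closest pairs were Tpx2 with Ckap5 (0.28) and Numa1 with Pcnt (0.31).

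The 82 other genes of the pathway, listed in 7 groups, were mostly not called. From GV to MII in WT 14 of 80 tested were called lower and none higher, beside 30.5% and 0.393% of all genes, with 4 of 11 in the Ran cycle and its transport receptors, 4 of 8 in augmin, which branches microtubules from existing ones, 3 of 11 among cortical dynein and pole anchors, 2 of 9 among partners of Tacc3, Ckap5 and clathrin, and 1 of 19 in the MTOC and γ-tubulin group. None of 12 motors and bundlers and none of 10 Ran-released or chromatin-bound factors was called. The count ran from 5 to 24 with 1 library left out, 6 and 5 without WT GV replicate 1 and replicate 2, 24 without WT MII replicate 1 and 9 without replicate 2. With TMM scaling 9 were lower and 17 higher, and 34 of the 80 log2 fold changes had the other sign.

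The clathrin light chains fell in WT, with larger log2 fold changes than that of the heavy chain. Clta went from 1362 and 1250 counts in the WT GV pair to 146 and 136 in the WT MII pair (log2 fold change −4.22 ± 0.58, edgeR adjusted p = 1.02e-11), and Cltb had 1079 and 790 against 120 and 255 (−3.45 ± 0.57, edgeR adjusted p = 2.29e-08). The difference between them and Cltc was not tested. Mzt2, a small subunit that recruits γ-tubulin complexes, went from 672 and 513 to 70 and 82 counts (−4.00 ± 0.61, edgeR adjusted p = 1.53e-09). Ranbp3, a co-factor of nuclear export, stood at −3.57 ± 0.62 (edgeR adjusted p = 1.44e-07), and the augmin subunit Haus7 at −3.51 ± 0.56 (edgeR adjusted p = 1.12e-08). Each of these 5 was also called lower with TMM scaling, between −3.31 and −2.42.

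In KO only Mzt2 of the 81 listed genes tested was called from GV to MII (−3.52 ± 0.80, edgeR adjusted p = 0.0464), beside 3.28% of all genes lower, and 11 had an unadjusted p under 0.05. The call was lost without either KO GV library, where 0 were called. DESeq2 called 9 lower, TMM scaling 4 lower and 5 higher, and edgeR 10 lower without KO MII replicate 2 (16.5% of all genes) and 50 lower without KO MII replicate 1 (53.9%). With both KO MII libraries Clta stood at −3.15 ± 0.83 from GV to MII in KO (edgeR adjusted p = 0.0628), with 1475 and 1746 counts in KO GV and 458 and 135 in KO MII. The Clta value was −2.42 without KO MII replicate 2 and −4.66 without replicate 1. None of the 81 was called for the KO minus WT difference in the GV to MII change, with 1 at an unadjusted p under 0.05 in edgeR and 0 by DESeq2. The augmin subunit Haus1 went from 14699 and 12146 counts at GV to 5547 and 5984 at MII in WT, and from 10943 and 12214 to 12047 and 17246 in KO. Its log2 fold change from GV to MII was −2.24 ± 0.48 in WT (edgeR adjusted p = 3.03e-05) and −0.54 ± 0.50 in KO (edgeR adjusted p = 0.534). The KO value was −0.56 without KO MII replicate 2 and −0.52 without replicate 1. The KO minus WT difference of Haus1 was among those not called. From GVBD to MII 13 of 81 were lower in WT, beside 27.1% of all genes, and 4 of 81 in KO (Mzt2, Clta, Cltb and Haus7), beside 7.12%. The WT count was 4 without WT GVBD replicate 1, 9 without replicate 2, 11 without WT MII replicate 1 and 5 without replicate 2, and TMM scaling gave 17 higher and 10 lower. The KO count was 0 without either KO GVBD library or KO MII replicate 2, 37 without KO MII replicate 1 (32.4% of all genes), and 1 with TMM scaling.

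**Figure D4:**
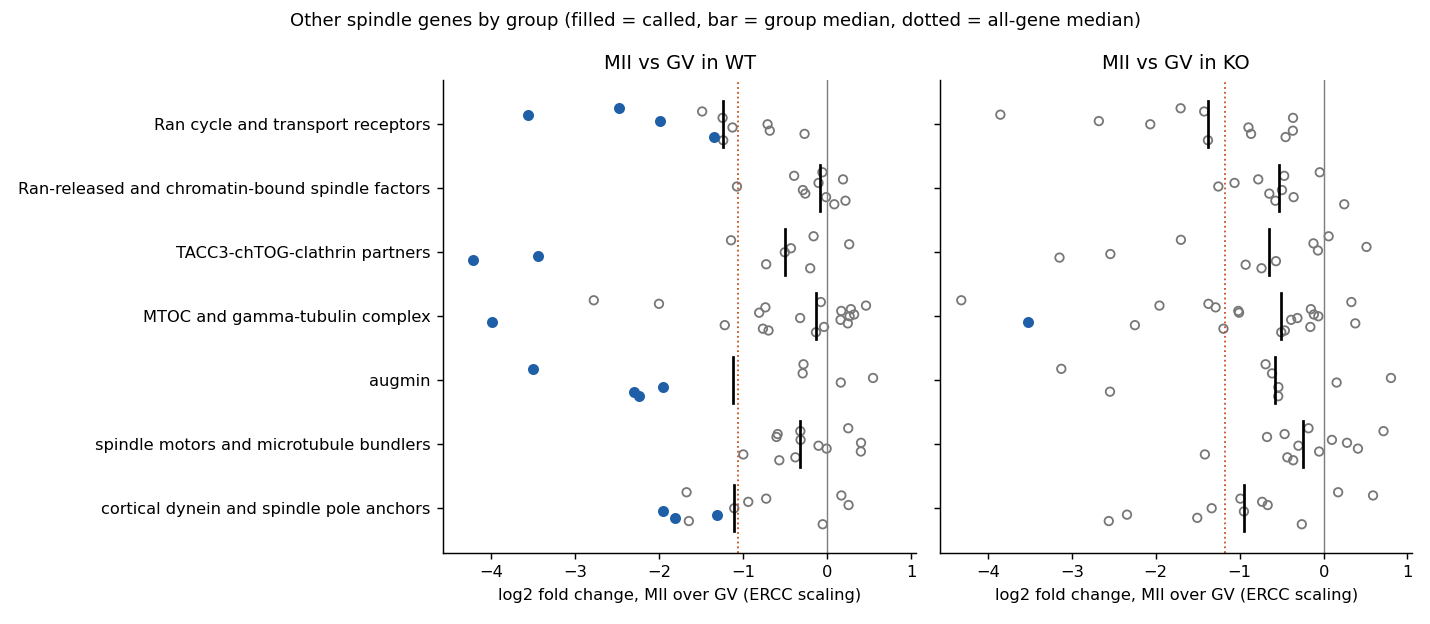
The log2 fold change of MII over GV (horizontal axis, ERCC scaling) is plotted for the other listed spindle genes by group, in WT on the left and KO on the right. Points are genes, filled where called (14 in WT, 1 in KO), bars are group medians and the dotted line is the median of all genes tested. The filled points sit in the Ran cycle, augmin, clathrin, MTOC and pole anchor groups in WT.

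Between KO and WT, 2 of 81 listed genes tested were called at GVBD, both higher in KO. Over all genes tested there, 2.54% were called in either direction and 0.807% higher. Myo10, a myosin that binds microtubules and lies in the liquid-like spindle domain of oocytes, had 2411 and 3725 counts in KO GVBD and 614 and 528 in WT GVBD (2.64 ± 0.55, edgeR adjusted p = 0.0106). Tubg2, a γ-tubulin, had 1191 and 1920 against 415 and 471 (2.07 ± 0.53, edgeR adjusted p = 0.0417). The KO GVBD libraries lay above the WT GVBD libraries for both genes. At GV Myo10 went the other way, with 605 and 722 counts in KO against 997 and 2559 in WT (−1.24 ± 0.50, edgeR adjusted p = 0.275). With TMM scaling neither GVBD call held, at log2 fold changes of 2.41 for Myo10 and 1.80 for Tubg2 (edgeR adjusted p = 0.0584 and 0.0924). Nor did they hold without WT GVBD replicate 1 (3.11 and 2.29, edgeR adjusted p = 0.166 and 0.223) or replicate 2 (2.29 and 1.87, edgeR adjusted p = 0.215 and 0.316), or with all 12 libraries in 1 model (edgeR adjusted p = 0.181 and 0.187). The Tubg2 call was also lost without either KO GVBD library (2.12 and 2.01, edgeR adjusted p = 0.201 and 0.209). From GV to GVBD in KO Myo10 rose by 2.00 ± 0.27 (edgeR adjusted p = 0.0417), a call lost without either KO GV library, at 2.13 and 1.87 (edgeR adjusted p = 0.553 and 0.479), with TMM scaling, at 2.14 (edgeR adjusted p = 0.0528), and with all 12 libraries in 1 model (edgeR adjusted p = 1.0). The 6 listed blood markers, which include haemoglobin chains, moved with genotype at GVBD, with summed counts of 100776 to 111023 in WT and 207 to 643 in KO, and their part in these differences was not tested. At GV the same markers ran from 1251 to 153802 in WT and from 84975 to 183369 in KO. No listed gene was called at GV, at MII or over all stages, with 16, 1 and 13 at an unadjusted p under 0.05, while DESeq2 called 2 at GV, 0 at MII and 1 over all stages. TMM and median-of-ratios scaling each called 1 lower over all stages. Without a filter on low counts 1 was higher and 1 lower at GV, and 1 was higher over all stages. In each of these comparisons, some fits with a library left out also called listed genes. At GVBD DESeq2 called 4, all higher in KO, among them Myo10 (DESeq2 adjusted p = 2.17e-06) and Tubg2 (DESeq2 adjusted p = 0.00039). The GVBD calls of Myo10 and Tubg2 also held without a filter on low counts and with at least 10 counts in every library.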

How the data were processed

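The authors deposited whole-number counts per gene and per ERCC sequence, not normalized. Per the study's methods, reads were trimmed with cutadapt, aligned with HISAT2 to GRCm38 (mm10) joined to the ERCC sequences, kept where uniquely mapped, and passed to StringTie. The submitters' processing notes name cutadapt 1.9, HISAT2 2.0.4 and StringTie 1.3.4d, and the study's reporting summary names other versions of the first pair. The step that made the deposited counts and its use of strand are not given in the sources used here, so overlapping genes may share reads. The labels describe a bulk RNA extraction, whereas the methods describe reverse transcription of lysed oocytes by a SMART-seq protocol.

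Symbols were matched to gene IDs with GENCODE M21. As in the study, libraries were scaled by their ERCC total, and each comparison was fitted with the edgeR 4.0.16 quasi-likelihood test in R 4.3.3 on its own libraries. These were all 12 for the comparison over all stages, and the GV and MII libraries of both genotypes for the KO minus WT difference. Genes were filtered with filterByExpr, p-values were adjusted by the Benjamini-Hochberg method over all genes tested, and a gene was called at an adjusted p under 0.05 and a log2 fold change of at least 1 in size. The SE given with an edgeR value is the size of the log2 fold change divided by the square root of its quasi-likelihood F statistic. Rows with no symbol took under 1% of counts. Alternatives were TMM and median-of-ratios scaling, well-covered ERCC sequences alone (10 counts or more throughout), other filters, DESeq2 1.42.0, 1 model of all 12 libraries, no fold minimum, the replicate number as a block, and each library left out in turn. The fits were tested on simulated counts. Totals of 28557742 to 40247810 counts per library limit the precision less than having 2 libraries per group. The members and gene lists were chosen with earlier results of these data known. Named were the 8 members, Alkbh5, Rasl2-9, listed pathway genes called between genotypes, up to 3 of the lowest and highest called ones per stage comparison, and the 2 genes most alike to each member, of which 1 is not reported here. Haus1 and the genes that overlap a member were named after their values were seen.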

Additional observations from a re-analysis of the deposited data

How the results depend on the processing

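With 2 libraries per group, leaving 1 out sets 1 arm to a single library that is assumed to vary like the other arm. Under every alternative run, 0 of the 8 transcripts were called between KO and WT at GV, GVBD, MII or over all stages, or for the KO minus WT difference. From GV to MII in WT (2 called) the count was 1 with TMM scaling and 1 with all 12 libraries in 1 model, and 0 to 4 with each library left out. With median-of-ratios scaling it was 2, but these were Tacc3 lower and Rcc1 higher (1.05). From GV to MII in KO (0 called) it was 1 without a filter on low counts, 1 with at least 10 counts in every library, 1 with DESeq2, 1 with all 12 libraries and 1 with the replicate block, each time Tacc3, and 0 to 6 with each library left out. From GV to GVBD in KO (0 called) it was 0 to 1 with each library left out. From GVBD to MII in WT (2 called) it was 1 with all 12 libraries and 0 to 1 with each library left out, and TMM and median-of-ratios scaling called Pcnt higher in place of Cltc lower. From GVBD to MII in KO (1 called) it was 0 with TMM scaling, 0 with median-of-ratios scaling, 0 with the crossed replicate block, and 0 to 4 with each library left out, the 4 being without KO MII replicate 1. Rcc1 from GV to MII in KO reversed, with log2 fold changes between −4.32 and 1.49 over the libraries left out, and 1.10 with TMM scaling. The cause was not tested.

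Over all genes the number called moved more: from GV to MII in KO, 615 were lower by edgeR, 3052 by DESeq2 and 39 to 11013 with 1 library left out (0.196% to 53.9% of genes), and between KO and WT at GVBD 157 were higher and 337 lower with ERCC scaling and 2 higher and 27 lower with TMM scaling. Same-numbered libraries did not pair. The correlations of their deviations from the group means ran from −0.22 to 0.24 over 13273 genes, so the block and the crossed pairing, chosen after seeing the data, are given here only. With the block Tacc3 from GV to MII was called in KO too (−2.92, edgeR adjusted p = 0.0212), and at most 1 call changed in any other comparison of the 8. Among the listed genes the block ended the calls of Tubg2 between KO and WT at GVBD (2.08, edgeR adjusted p = 0.0805) and of Myo10 from GV to GVBD in KO (2.00, edgeR adjusted p = 0.126), and gave 8 lower in place of 1 from GV to MII in KO, and 7 in place of 4 in KO and 21 lower and 4 higher in place of 13 lower in WT from GVBD to MII. Of 1264 alternative values of the 8 transcripts, 1072 kept their direction and their side of the threshold. Of 88 pairs of a transcript and a comparison, 69 were uncalled in every fit.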
